A study of Homo sapiens with 13 samples.

Results

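The potassium channel genes described here were the 85 rows of the deposited expression tables whose symbol begins with one of 17 subfamily stems (*KCNA*, *KCNAB*, *KCNB*, *KCNC*, *KCND*, *KCNF*, *KCNG*, *KCNH*, *KCNJ*, *KCNK*, *KCNMA*, *KCNMB*, *KCNN*, *KCNQ*, *KCNS*, *KCNT* and *KCNV*) and ends in a number, out of 56831 rows in all. The rule uses the name alone. RNA-seq was performed on H82 and H146, established small cell lung cancer (SCLC) cell lines labelled wild type. Each line was either left untreated or exposed for 14 days to 100 nM FHD-286, an allosteric inhibitor of SMARCA4 and SMARCA2, the ATPase subunits of the SWI/SNF chromatin remodeling complexes. The groups held 3 untreated and 3 treated H82 libraries, and 3 untreated and 4 treated H146 libraries. The labels name no vehicle and give no culture time for the untreated cells, so exposure to drug and time in culture cannot be told apart. Nothing in the labels says that replicates came from separate cultures, so the p-values measure the spread between these libraries, which may be technical.

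Potassium channels let potassium leave the cell down its gradient, which holds the membrane negative and ends action potentials. The voltage-gated families open upon depolarization, calcium- and sodium-activated families respond to the ions that enter during firing, inward rectifiers and K2P leak channels set the resting potential, and modifier or beta subunits tune the pore-forming proteins they join. Neuroendocrine cells, SCLC included, are electrically excitable and use these channels to control calcium entry and hormone secretion.

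Short promoter windows of a few of these genes are shown first, because they hold letters that regulators of neuronal genes are known to read. Of the 85 genes, 63 had an entry in the RefSeq promoter set (GRCh38.p14). The first listed start of each gene was used, and the 250 bases before it were searched on both strands. The element read by the repressor REST has a left portion, CAGCACC, and a right portion, GGACAGC, separated by 2 bases in its usual form. The left portion occurred in 9.52% of the 63 promoters against 6.07% of 27305 promoters in the whole set, and the right portion in 12.7% against 4.78%. No member held both in the usual spacing, which 0.0403% of all promoters did. Both portions lay within 30 bases of each other in 3 members, 4.76% of those searched, against 0.143% of all promoters. These 3 windows are printed with the matched letters, in either orientation, in capitals. They were chosen by the distance between the portions and not by expression, which is described further below.

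KCNH5 (chr14:63045495-63045524, minus strand): cagcatCAGCACCggcgGGACAGCgacagc

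KCNH6 (chr17:63523123-63523152, plus strand): ctttCAGCACCaaggcgtGGACAGCtcccg

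KCNK3 (chr2:26692685-26692714, plus strand): gtgggtGGTGCTGaagGGACAGCtccgcgg

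The portions were 4 bases apart in *KCNH5*, 7 in *KCNH6* and 3 in *KCNK3*, where the left portion lay on the opposite strand. The *KCNH5* window lies well inside the annotated span of its gene (62699464 to 63102037), before an internal start. The same holds for the *KCNJ4* window printed below (span 38426327 to 38455199). The E-box CAGATG, a sequence preferred by neuronal basic helix-loop-helix factors, was present in 19.0% of the 63 promoters and in 12.2% of all promoters, and does not overlap the other patterns in its letters. Of the 12 members that held it, 5 were lower after treatment in a line (41.7%, beside 52.4% of the 63), 3 were tested and not called, and 4 were below the expression filter in both lines. Windows are given for a pair that fell, *KCND1* in H82 and *KCNA2* in H146, and a pair that was not called, *KCNA5* and *KCNJ4*, with the E-box in capitals on whichever strand it was found. A match describes these letters only and is not a measured binding site.

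KCND1 (chrX:48971983-48972012, minus strand): acccccattttcCAGATGacgcgactgagg

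KCNA2 (chr1:110631441-110631470, minus strand): catagaagagtgagccatCATCTGgtttcc

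KCNA5 (chr12:5043629-5043658, plus strand): ctattctCATCTGgttgccctgggaatttc

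KCNJ4 (chr22:38444156-38444185, minus strand): gtaatgatgttgCAGATGagactggtttga

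The values were TPM, the length-corrected share of transcripts scaled to a sum of 1000000 in each library, so they keep no record of sequencing depth. The neuroendocrine markers *SYP*, *CHGA*, *INSM1* and *NCAM1* were above 10 TPM in every library of both lines, whereas *NEUROD1* exceeded 1 TPM only in H82. The endothelial marker *CDH5* and the T-cell marker *CD3E* were near or at 0 throughout. Genes at 1 TPM or more numbered 21227 to 21772 in untreated and 15554 to 16633 in treated H82 libraries. In H146 they numbered 17476 to 17965 untreated and 18778 to 19309 treated. What this difference adds to the results of either line was not tested. Mitochondrial transcripts took 22.1 to 24.1% of the untreated and 12.3 to 14.9% of the treated H82 signal, and 7.56 to 8.86% of the untreated and 3.82 to 11.4% of the treated H146 signal. Their part in the results was not tested, and the counts of changed members without them are given below with the other scalings. Treated H82 replicate 2 differed from the other treated H82 libraries in single genes, with *INSM1* at 296 TPM against 32.1 and 33.9 TPM and the epithelial *EPCAM* at 32.8 TPM against 3.08 and 1.11 TPM. In that library 7 members were over 2 times the level of both other treated libraries and at least 1 TPM, against 3 and 0 members in treated replicates 1 and 3. Over all genes the order was another, since the same held for 15.1%, 6.56% and 3.61% of genes at 1 TPM or more in treated replicates 1, 2 and 3. Treated replicate 1 correlated less with the other treated libraries (Pearson's r across genes 0.949 and 0.958) than these did with each other (0.976). In H146, treated replicates 1 and 2 differed from replicates 3 and 4 in several members described below. *CD14*, a myeloid marker, was at 3.03 and 3.67 TPM in the former and at 10.9 and 10.5 TPM in the latter. The summed TPM of the 85 genes was 732 and 702 in the former and 567 and 551 in the latter. Across genes the same split was visible but uneven. Treated replicate 1 was nearly as close to replicates 3 and 4 as to 2, with r of 0.974, 0.973 and 0.971 with replicates 2, 3 and 4. Replicate 2 had 0.952 and 0.949 with replicates 3 and 4, which had 0.988 with each other.

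H146 carried more potassium channel RNA than H82, and the summed level was lower after treatment in both lines. The lines come from separate tables in the same unit, so levels set across them are a description without a test. The 85 genes summed to 321 to 343 TPM in untreated H82 and to 132, 179 and 135 TPM in treated H82, so that the groups did not overlap. In H146 they summed to 1091 to 1310 TPM untreated and to 551 to 732 TPM treated, again without overlap. In bulk RNA, fewer cells expressing a gene and less of its RNA per cell cannot be told apart. The untreated H146 total was led by *KCNH2*, the cardiac and neuronal hERG channel, with 21.3% of the summed TPM, and by *KCNA1*, a low-threshold delayed rectifier, with 13.6%. In untreated H82 the leaders were *KCNH6*, a relative of *KCNH2*, with 10.6% and the sodium-activated *KCNT2* with 8.60%. After treatment *KCNJ8*, a pore subunit of ATP-sensitive channels, led in H82 with 13.7%, and in H146 *KCNH2* and the A-type channel *KCND2* each took 8.60 to 8.62%.

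**Figure D1:**
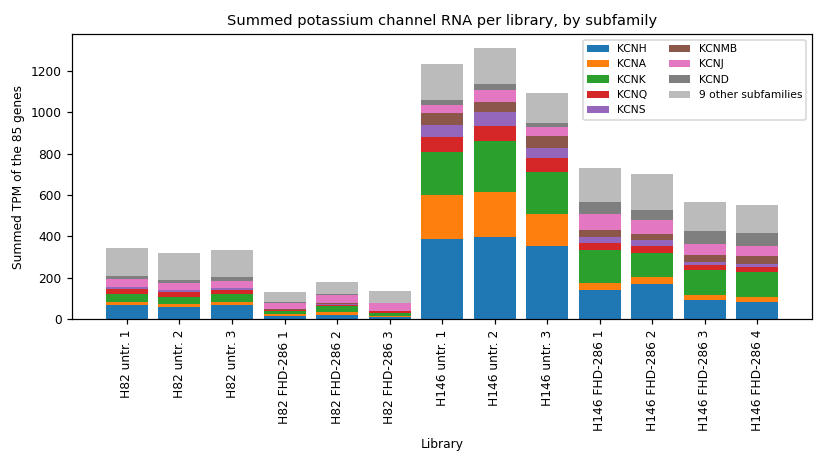
Stacked bars give the summed TPM of the 85 potassium channel genes in each of the 13 libraries, colored by subfamily, with the 9 remaining subfamilies in gray. Treated bars (132 to 179 TPM in H82, 551 to 732 TPM in H146) are below every untreated bar of the same line, and the *KCNH* and *KCNA* blocks of H146 shrink most.

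By subfamily, *KCNH* RNA in H146 was 380 ± 22.1 TPM (mean ± SD, n = 3) untreated and 122 ± 40.3 TPM (n = 4) treated, and *KCNA* RNA was 194 ± 36.8 against 29.3 ± 5.46 TPM. The H146 sums of *KCND*, at 23.3 ± 5.84 TPM untreated, and *KCNN*, at 17.9 ± 1.70 TPM, were higher after treatment, at 57.2 ± 6.59 and 37.9 ± 2.43 TPM. In H82 the *KCNAB* sum went from 46.7 ± 1.07 TPM untreated to 13.04 ± 2.21 TPM treated (n = 3 each), whereas the *KCNJ* sum was 32.4 ± 2.77 and 34.8 ± 4.13 TPM.

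**Figure D2:**
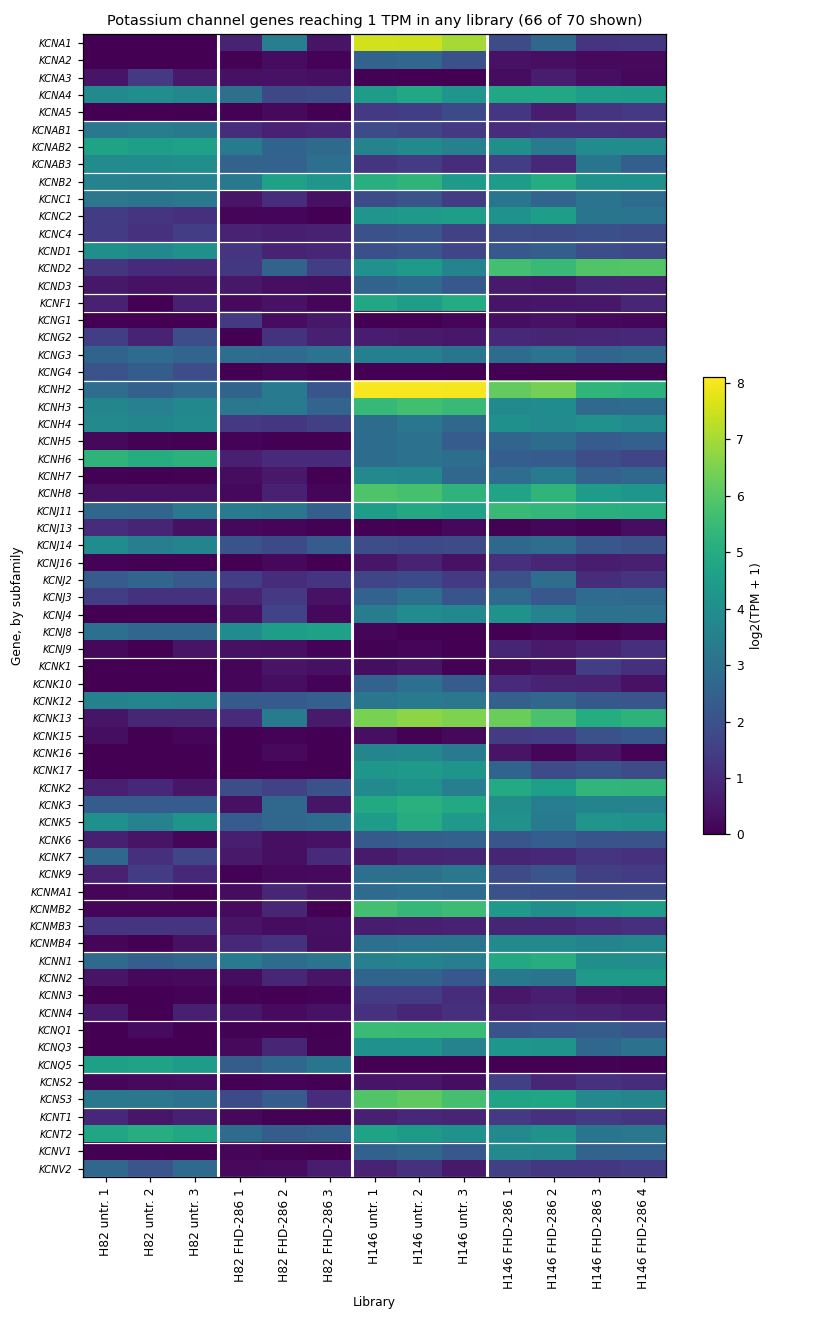
Heat map of log2(TPM + 1) for 66 of the 70 potassium channel genes that reached 1 TPM in any library, with genes in rows ordered by subfamily and the 13 libraries in columns. White lines separate groups and subfamilies, and the brightest cells are *KCNH2* and *KCNA1* in untreated H146, where their means were 256 and 165 TPM.

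A gene was tested in a line if at least 3 of its libraries reached 1 TPM, and it was called lower or higher when its limma Benjamini-Hochberg adjusted p, taken over all genes tested, was under 0.05. Fold changes are log2 differences of treated minus untreated on the log2(TPM + 1) scale, which understates the change of low genes. In H82, 35 members were tested and 50 were below the filter. Of the 35, 23 were lower and 2 higher after FHD-286. Over all 19770 genes tested in H82, 45.5% were lower and 13.1% higher. The members' median change was -1.24 and that of all tested genes -0.56. Among the 35, 9 passed only through the untreated and 1 only through the treated libraries, and such genes had to differ. Restricting the same fit to genes with at least 1 TPM in a library of each group, a choice made after seeing the data, kept 25 members, of which 14 were lower and 1 higher. In that set 36.5% of all genes were lower. Most genes shifted down in H82, and the balance depended on the scaling. With median-of-ratios scaling 21 members were lower and 6 higher, beside 32.9% and 24.2% of all genes, and with quantile normalization 15 were lower and 8 higher, beside 24.6% and 26.6%. *KCNB2*, *KCND2*, *KCNG3* and *KCNN1*, not called in H82 on the TPM as deposited, were called higher there under both of these scalings, and *KCNJ11* and *KCNC4* with quantile normalization. Leaving out any 1 untreated H82 library lowered the count of falls to 14, with 25 or 26 members passing the filter, beside 26.2 to 26.9% of all genes. Leaving out treated replicate 1 gave 23 lower and 3 higher of 34, beside 52.2% and 18.4% of all genes, and leaving out treated replicate 2 gave 23 lower and 1 higher of 33, beside 42.6% and 9.03%.

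In H146, 56 members were tested and 29 were below the filter. Of the 56, 23 were lower and 14 higher, with a median of -0.43 against 0.25 for all tested genes. Over all 19585 genes tested in H146, 15.5% were lower and 32.5% higher. The filter was passed only through the untreated libraries by 6 members and only through the treated libraries by 4. Among genes with at least 1 TPM in a library of each group, 17 of 46 members were lower and 10 higher, beside 14.6% and 30% of all genes. Median-of-ratios scaling gave 25 lower and 9 higher members, beside 25.1% and 21.3% of all genes, and quantile normalization gave 26 and 9, beside 20.8% and 23.7%. Without mitochondrial genes the counts were 24 lower and 2 higher of 36 in H82, beside 50.5% and 10.4% of all genes, and 23 lower and 12 higher of 56 in H146, beside 15.8% and 31.5%. Leaving out untreated H146 replicate 1, 2 or 3 left 13, 12 or 16 falls among 50 members tested, beside 9.58%, 10.2% or 10.8% of all genes, and 8, 10 or 7 rises, beside 24.5%, 26.2% or 22.6%.

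**Figure D3:**
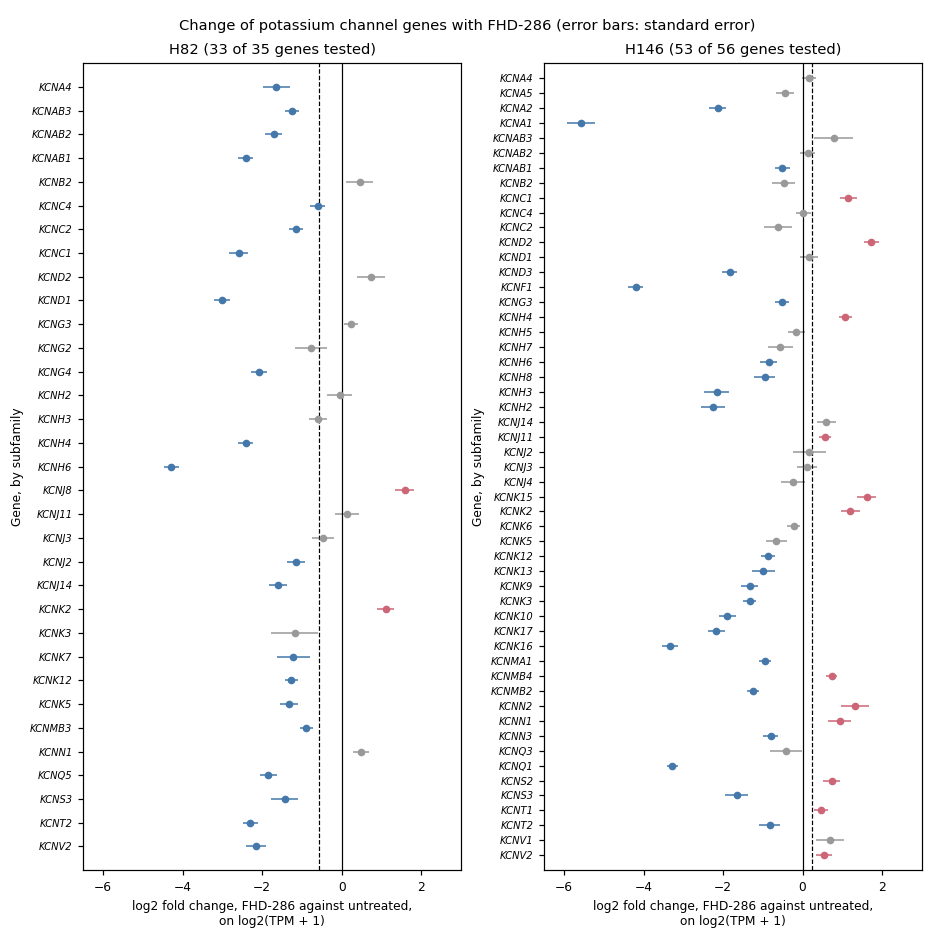
Points give the log2 fold change of each tested member with FHD-286 against untreated on log2(TPM + 1), with standard errors, for 33 of the 35 genes tested in H82 (left) and 53 of the 56 tested in H146 (right), ordered by subfamily. Blue marks a call of lower, red a call of higher and gray no call, and the dashed line is the median of all tested genes (-0.56 in H82, 0.25 in H146).

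Among the pore-forming voltage-gated families, *KCNA1* (chromosome 12, 4909905 to 4918256) had the largest fold change of any tested member. Its level in untreated H146 was 184, 183 and 128 TPM, and in treated H146 2.67, 5.65, 1.37 and 1.44 TPM. The treated libraries were far below every untreated library, 59.5-fold lower in the mean, and the log2 fold change was -5.57 ± 0.35 (SE, limma adjusted p = 1.8e-05). In H82 *KCNA1* was listed at 0 in all 3 untreated libraries and was at 0.717, 10.0 and 0.351 TPM after treatment, so that treated replicate 2 carried nearly all of it and the gene was below the filter. *KCNA2*, its frequent partner in axonal channels, was at 4.97, 5.40 and 2.99 TPM in untreated H146 and at 0.144 to 0.316 TPM in the treated libraries (-2.13 ± 0.21, limma adjusted p = 0.000154). It passed the filter only through the untreated libraries. *KCNA4*, an A-type channel, behaved differently in the lines. It fell in H82 from 13.4, 14.7 and 12.5 TPM to 7.01, 2.41 and 2.68 TPM (log2 fold change -1.64 ± 0.34, limma adjusted p = 0.00539). H146 held it at 21.4, 27.2 and 17.5 TPM untreated and at 27.7, 28.1, 21.8 and 20.9 TPM treated, and the groups overlapped (0.16 ± 0.18, limma adjusted p = 0.487). That small H146 difference was negative under both other scalings.

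*KCNB2*, a delayed rectifier of neurons, was not called in either line on the TPM as deposited. It was at 11.1, 10.6 and 11.0 TPM in untreated H82 and at 8.47, 23.7 and 17.8 TPM in treated H82 (0.46 ± 0.34, limma adjusted p = 0.283), and its change was 0.91 with median-of-ratios scaling (limma adjusted p = 0.047). In H146 its untreated values of 33.6, 37.7 and 19.2 TPM overlapped the treated values of 20.9, 31.6, 17.0 and 15.8 TPM (-0.48 ± 0.29, limma adjusted p = 0.202).

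The *KCNC* channels close fast enough to sustain rapid firing. *KCNC1* (chromosome 11, 17734774 to 17856804) was at 8.19, 7.75 and 8.55 TPM in untreated H82 and at 0.348, 1.04 and 0.274 TPM after treatment (-2.59 ± 0.24, limma adjusted p = 0.000272). In H146 the same gene was higher after treatment, with 2.60, 3.17 and 1.71 TPM untreated and 7.96, 5.21, 7.44 and 6.32 TPM treated (1.15 ± 0.21, limma adjusted p = 0.0029). The groups did not overlap in either line. *KCNC2* fell in H82 from 1.63, 1.34 and 1.16 TPM to 0.0750, 0.0872 and 0.0200 TPM (-1.16 ± 0.18, limma adjusted p = 0.00152), although with quantile normalization the change was 0.054 (limma adjusted p = 0.81). *KCNC2* and *KCNC4* passed the H82 filter only through the untreated libraries, so they had to be lower. In H146 *KCNC2* was not called. Its treated H146 values were 16.9 and 22.0 TPM in replicates 1 and 2 and 7.90 and 7.73 TPM in replicates 3 and 4, against 17.9 to 21.6 TPM untreated. The H82 change of *KCNC4*, -0.60 ± 0.19 (limma adjusted p = 0.0272), was about the median of all genes and was 0.54 with quantile normalization (limma adjusted p = 0.04), and its H146 change was 0.02 ± 0.18.

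**Figure D4:**
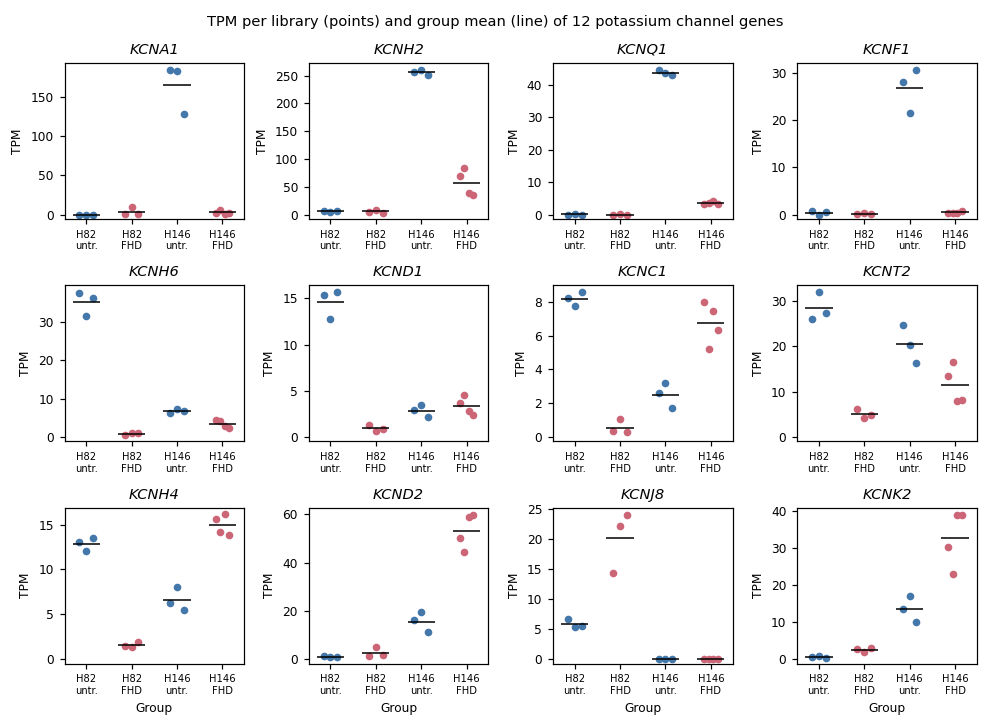
TPM per library (points) and group mean (horizontal line) for 12 members, with untreated libraries in blue and FHD-286 libraries in red, H82 in the left and H146 in the right columns of each panel. *KCNA1*, *KCNH2*, *KCNQ1* and *KCNF1* are lower after treatment in H146, *KCNH6*, *KCND1* and *KCNT2* in H82, *KCNC1* and *KCNH4* are lower in H82 and higher in H146, and *KCNJ8* rises in H82.

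The *KCND* genes encode A-type channels that delay firing, and each of the 3 had its own pattern. *KCND1* (chromosome X, 48961378 to 48971844) fell in H82 from 15.3, 12.7 and 15.7 TPM to 1.32, 0.693 and 0.813 TPM (-3.01 ± 0.21, limma adjusted p = 0.000139). Its H146 levels of 2.21 to 3.44 TPM untreated and 2.40 to 4.53 TPM treated overlapped. *KCND2* (chromosome 7, 120273175 to 120750337) rose in H146 from 16.1, 19.4 and 11.2 TPM to 50.2, 44.2, 58.8 and 59.8 TPM (1.73 ± 0.19, limma adjusted p = 0.000287). Every treated H146 library was above every untreated one, and treated *KCND2* was then close to *KCNH2* as the most abundant member of that group. In H82 *KCND2* was at 1.31, 0.980 and 0.958 TPM untreated and at 1.51, 5.02 and 1.81 TPM treated, with the highest value in treated replicate 2 (0.75 ± 0.35, limma adjusted p = 0.106). With median-of-ratios scaling that change was 1.04 (limma adjusted p = 0.042). *KCND3* fell in H146 from 3.65 to 5.88 TPM to 0.447 to 0.778 TPM (-1.84 ± 0.20, limma adjusted p = 0.000234), having passed the filter only through the untreated libraries.

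The modifier genes *KCNF1*, *KCNG*, *KCNS* and *KCNV* encode subunits that form no channel alone and join *KCNB* proteins. *KCNF1* (chromosome 2, 10911934 to 10914225) was at 28.2, 21.6 and 30.6 TPM in untreated H146 and at 0.384, 0.419, 0.422 and 0.831 TPM after treatment. The treated mean was 52.1-fold lower and the log2 fold change -4.19 ± 0.19 (limma adjusted p = 4.03e-06), with the filter passed only through the untreated libraries. In H82 *KCNF1* was under 1 TPM in every library. *KCNS3* (chromosome 2, 17877847 to 18361616) fell in both lines. It was at 58.4, 67.9 and 51.9 TPM in untreated H146 and at 25.5, 26.7, 12.9 and 11.9 TPM in treated H146 (-1.66 ± 0.29, limma adjusted p = 0.00252). In H82 it was at 8.51, 8.20 and 7.32 TPM untreated and at 2.52, 4.17 and 1.06 TPM treated (-1.43 ± 0.34, limma adjusted p = 0.0097). The groups did not overlap in either line, although the H82 change under quantile normalization was -0.55 (limma adjusted p = 0.19).

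*KCNV2* was lower in H82, with 5.53, 3.44 and 5.81 TPM untreated and 0.164, 0.190 and 0.583 TPM treated (-2.16 ± 0.25, limma adjusted p = 0.000559), where the untreated libraries alone carried it past the filter. In H146 its values of 0.751, 1.23 and 0.479 TPM untreated and 1.91, 1.51, 1.42 and 1.65 TPM treated gave 0.54 ± 0.20 (limma adjusted p = 0.0478), a call that median-of-ratios scaling did not keep (0.38, limma adjusted p = 0.13). *KCNV1* was below the filter in H82 and not called in H146, at 3.67 to 5.65 TPM untreated and 4.99 to 13.1 TPM treated. *KCNG4* was at 3.19, 4.27 and 2.78 TPM in untreated H82 and was listed at 0 in 2 treated libraries and at 0.0847 TPM in the other (-2.09 ± 0.20, limma adjusted p = 0.000314). Like *KCNV2*, it passed the H82 filter only through the untreated libraries and had to be lower. *KCNG3*, expressed in both lines, fell slightly in H146 from 10.3, 10.3 and 7.85 TPM to 6.35, 7.52, 5.27 and 6.02 TPM (-0.52 ± 0.17, limma adjusted p = 0.0336). In H82 the *KCNG3* values were 5.06, 6.10 and 5.19 TPM untreated and 6.37, 6.13 and 7.44 TPM treated (0.24 ± 0.18, limma adjusted p = 0.277). Under median-of-ratios scaling that H82 difference was 0.67 (limma adjusted p = 0.016).

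The cytoplasmic beta subunits of the *KCNA* channels, *KCNAB1*, *KCNAB2* and *KCNAB3*, were all lower in H82, 3 of 3 under each scaling, beside 45.5% of all genes on the TPM as deposited. *KCNAB1* was at 8.45, 9.61 and 8.78 TPM untreated and at 1.10, 0.668 and 0.838 TPM treated (-2.42 ± 0.19, limma adjusted p = 0.00018). *KCNAB2*, the most abundant, was at 24.6, 21.8 and 23.8 TPM untreated and at 8.87, 5.12 and 5.91 TPM treated (-1.71 ± 0.21, limma adjusted p = 0.00073). *KCNAB3* was at 14.0 to 14.8 TPM untreated and at 5.03, 4.85 and 6.71 TPM treated (-1.24 ± 0.18, limma adjusted p = 0.00126). In H146 only *KCNAB1* was called, with 2.59, 2.25 and 1.54 TPM untreated and 1.06, 1.29, 1.24 and 1.15 TPM treated (-0.50 ± 0.18, limma adjusted p = 0.0481). *KCNAB3* spread widely among treated H146 libraries, at 1.80, 0.884, 7.87 and 4.48 TPM against 1.05 to 1.65 TPM untreated.

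Among the *KCNQ* genes, *KCNQ1* (chromosome 11, 2444654 to 2849105), a channel of heart and secretory epithelia, was an H146 gene. It was at 44.5, 43.7 and 42.9 TPM untreated and at 3.26, 3.64, 4.25 and 3.35 TPM treated. Both groups were tight, the mean was 12.1-fold lower after treatment, and the log2 fold change was -3.28 ± 0.13 (limma adjusted p = 2.9e-06). Strand use in the counting was not given in the sources used here, and the antisense *KCNQ1OT1* was listed at 0.229 to 0.253 TPM in untreated and at 0.183 to 0.812 TPM in treated H146. *KCNQ5*, a subunit of the M-current that restrains repetitive firing, was an H82 gene. It fell from 23.6, 24.4 and 21.2 TPM to 4.23, 5.52 and 7.85 TPM (-1.84 ± 0.22, limma adjusted p = 0.000654) and was at or under 0.0283 TPM in every H146 library. *KCNQ3*, another M-current gene, was expressed in H146 and not called there, at 11.4 to 16.8 TPM untreated and at 18.3, 17.1, 5.5 and 7.13 TPM treated.

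The *KCNH* family held more RNA than any other subfamily in the untreated cells of both lines. *KCNH2* (chromosome 7, 150944961 to 150978321) was at 257, 260 and 251 TPM in untreated H146 and at 69.9, 83.2, 38.0 and 35.1 TPM after treatment. All treated libraries were below the untreated ones, 4.53-fold in the mean, with replicates 1 and 2 again above 3 and 4 (-2.26 ± 0.29, limma adjusted p = 0.000565). In H82 *KCNH2* was at 6.46, 4.63 and 6.10 TPM untreated and at 5.10, 8.81 and 3.49 TPM treated (-0.05 ± 0.31, limma adjusted p = 0.902). *KCNH6* (chromosome 17, 63523334 to 63548977), whose promoter window is printed above, had the largest fall in H82, from 37.7, 31.6 and 36.3 TPM to 0.624, 0.956 and 0.999 TPM. The treated mean was 40.9-fold lower and the log2 fold change -4.28 ± 0.18 (limma adjusted p = 5.75e-05), in a gene that passed the filter only through the untreated libraries. *KCNH6* also fell in H146, from 6.33, 7.29 and 6.68 TPM to 4.33, 4.17, 2.78 and 2.23 TPM (-0.86 ± 0.21, limma adjusted p = 0.0114).

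The elk-type genes *KCNH3*, *KCNH4* and *KCNH8* did not move together. *KCNH3* fell in H146 from 42.1, 48.9 and 43.6 TPM to 13.6, 14.3, 5.78 and 6.29 TPM (-2.16 ± 0.31, limma adjusted p = 0.000891). In H82 it was at 12.1, 10.6 and 12.6 TPM untreated and at 8.29, 9.44 and 5.26 TPM treated (-0.59 ± 0.23, limma adjusted p = 0.0629), and without the second treated library at -0.74 (limma adjusted p = 0.0432). *KCNH4* (chromosome 17, 42156891 to 42181142) was lower in H82, with 13.1, 12.1 and 13.5 TPM untreated and 1.52, 1.41 and 1.89 TPM treated (-2.42 ± 0.18, limma adjusted p = 0.000152). H146 showed a higher level after treatment, with 6.32, 8.09 and 5.45 TPM untreated and 15.6, 14.1, 16.1 and 13.9 TPM treated (1.08 ± 0.16, limma adjusted p = 0.00105). The treated H146 level was thus about the untreated H82 level. *KCNH8* was called lower in H146 (-0.96 ± 0.26, limma adjusted p = 0.0164) although the highest treated library, at 38.4 TPM, exceeded the lowest untreated one, at 37.9 TPM. *KCNH5* and *KCNH7* were detected in H146, at 4.13 to 7.09 and 5.65 to 13.1 TPM untreated, and were not called.

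Calcium-activated channels had their higher levels in H146. *KCNMA1*, the large-conductance channel, was at 6.16, 6.71 and 6.13 TPM in untreated H146 and at 3.04, 2.82, 2.60 and 2.72 TPM after treatment (-0.95 ± 0.15, limma adjusted p = 0.00126). Its inactivating beta subunit *KCNMB2* (chromosome 3, 178272932 to 178844429) fell from 49.8, 40.8 and 46.3 TPM to 19.6, 14.9, 18.9 and 21.7 TPM (-1.24 ± 0.15, limma adjusted p = 0.00042). The intronic transcript *KCNMB2-IT1*, whose reads may overlap those of *KCNMB2*, was at 39.5 to 45.4 TPM untreated and 1.84 to 12.2 TPM treated in the same libraries. The neuronal beta subunit *KCNMB4* went the other way, from 6.71, 7.56 and 7.63 TPM to 13.3, 13.6, 11.5 and 12.6 TPM (0.73 ± 0.13, limma adjusted p = 0.00297). In H82 *KCNMA1* and *KCNMB2* were under 1 TPM in every library, and *KCNMB3* was lower after treatment, with 1.33 to 1.39 TPM against 0.216 to 0.359 TPM (-0.89 ± 0.17, limma adjusted p = 0.00382), a change of 0.29 (limma adjusted p = 0.17) with quantile normalization. *KCNMB3* passed the filter only through the untreated libraries.

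The small-conductance *KCNN1* and *KCNN2*, which produce the afterhyperpolarization, rose in H146. *KCNN1* was at 10.5, 11.6 and 10.2 TPM untreated and at 28.7, 32.0, 15.5 and 14.6 TPM treated (0.93 ± 0.28, limma adjusted p = 0.0247). *KCNN2* was at 5.07, 5.06 and 3.66 TPM untreated and at 8.64, 7.66, 19.6 and 20.4 TPM treated (1.32 ± 0.35, limma adjusted p = 0.0148). The treated libraries thus ranked in opposite ways for these genes, *KCNN1* being higher in replicates 1 and 2 and *KCNN2* in replicates 3 and 4. With median-of-ratios scaling the change of *KCNN1* was 0.63 (limma adjusted p = 0.12). *KCNN3* fell from 1.03 to 1.66 TPM to 0.236 to 0.611 TPM in H146 (-0.80 ± 0.19, limma adjusted p = 0.00949), as a gene that reached 1 TPM in the untreated libraries alone. In H82 *KCNN1* was the only tested member of the family, at 4.43 to 5.88 TPM untreated and 6.34 to 9.06 TPM treated (0.49 ± 0.20, limma adjusted p = 0.0755), without overlap, and its change was 0.91 with median-of-ratios scaling (limma adjusted p = 0.01).

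*KCNT2* (chromosome 1, 196225779 to 196609225), a sodium-activated channel, fell in H82 from 26.1, 32.0 and 27.4 TPM to 6.23, 4.18 and 4.78 TPM (-2.29 ± 0.19, limma adjusted p = 0.0002). H146 levels were 24.8, 20.2 and 16.3 TPM untreated and 13.4, 16.4, 7.83 and 8.16 TPM treated (-0.83 ± 0.27, limma adjusted p = 0.034). There treated replicate 2 and untreated replicate 3 overlapped, at 16.4 and 16.3 TPM. Its relative *KCNT1* was called higher in H146 (0.46 ± 0.17, limma adjusted p = 0.0469), with 0.626 to 0.866 TPM untreated and 1.21 to 1.58 TPM treated, and not under median-of-ratios scaling (0.30, limma adjusted p = 0.15). It passed the filter only through the treated libraries, so it had to be higher.

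Of the 16 inward rectifier genes, 5 were tested in each line. *KCNJ8* (chromosome 12, 21764955 to 21775600) rose in H82 from 6.79, 5.43 and 5.60 TPM to 14.3, 22.2 and 24.0 TPM (1.58 ± 0.23, limma adjusted p = 0.00127). Every treated library was above every untreated one, the mean was 3.40-fold higher, and the gene was at or under 0.0857 TPM in all H146 libraries. The other ATP-sensitive pore subunit, *KCNJ11*, which pairs with the sulfonylurea receptor *ABCC8* in islet cells, rose in H146 from 22.0, 28.9 and 24.4 TPM to 43.0, 40.5, 34.6 and 31.7 TPM (0.56 ± 0.15, limma adjusted p = 0.0164). That call was lost with median-of-ratios scaling (0.25, limma adjusted p = 0.25). In H82 *KCNJ11* was at 5.39, 5.18 and 8.43 TPM untreated and 8.84, 8.14 and 4.50 TPM treated (0.14 ± 0.30, limma adjusted p = 0.712).

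*KCNJ14* fell in H82 from 14.4, 10.1 and 11.7 TPM to 3.33, 2.53 and 4.08 TPM (-1.60 ± 0.22, limma adjusted p = 0.00108). *KCNJ2*, the classical strong rectifier of muscle, fell there from 4.02, 5.21 and 3.78 TPM to 1.86, 1.02 and 1.37 TPM (-1.15 ± 0.22, limma adjusted p = 0.0042), although the change was -0.11 (limma adjusted p = 0.68) with quantile normalization. Neither was called in H146, where *KCNJ14* was at 2.54 to 2.78 TPM untreated and 3.04 to 6.45 TPM treated, and *KCNJ2* at 1.60 to 2.56 TPM untreated and 3.01, 6.40, 1.10 and 1.40 TPM treated. The G protein-gated *KCNJ3* was called in neither line. *KCNJ12* and *KCNJ18* are near-identical copies between which reads may be split, and *KCNJ18* was listed at 0 in all 13 libraries.

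The K2P leak channels came after *KCNH* in summed RNA in untreated H146. Of 11 tested members 7 were lower there and 2 higher, beside 15.5% and 32.5% of all genes. Among those called, *KCNK10* and *KCNK16* passed the filter only through the untreated and *KCNK15* only through the treated libraries. The direction of these genes was thus fixed by the filter. *KCNK16* and *KCNK17*, alkaline-activated channels of the pancreas, lie 237 bases apart on chromosome 6 between 39299001 and 39322968, so reads past the end of a gene could be shared. *KCNK16* was at 11.9, 12.9 and 9.11 TPM in untreated H146 and at 0.354, 0.115, 0.346 and 0.0538 TPM after treatment (-3.33 ± 0.19, limma adjusted p = 1.17e-05), 52.0-fold lower in the mean, and passed the filter only through the untreated libraries. *KCNK17* was at 18.4, 20.0 and 17.1 TPM untreated and at 5.16, 2.65, 3.31 and 2.67 TPM treated (-2.17 ± 0.21, limma adjusted p = 0.000147). Both were listed at 0 in every untreated H82 library. Another alkaline-activated gene, *KCNK5*, lies 69526 bases from *KCNK17*. In H82 *KCNK5* fell from 15.9, 11.0 and 17.3 TPM to 4.10, 5.36 and 6.21 TPM (-1.33 ± 0.23, limma adjusted p = 0.0028). The H146 values were 19.8 to 31.2 TPM untreated and 8.99 to 17.8 TPM treated, without overlap (-0.66 ± 0.26, limma adjusted p = 0.064). Under median-of-ratios scaling *KCNK5* was called lower in H146 (-0.96, limma adjusted p = 0.011), as it was after quantile normalization (-0.88, limma adjusted p = 0.017). The difference between the lines was -0.67 ± 0.37 and not past the threshold (limma adjusted p = 0.134).

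*KCNK13* (chromosome 14, 90061994 to 90185853), a leak channel inhibited by halothane, was the most abundant K2P gene and stood at 87.3, 102 and 91.0 TPM in untreated H146. After treatment it was at 76.8, 54.3, 31.2 and 36.6 TPM (-0.98 ± 0.28, limma adjusted p = 0.0197). In H82 it was under 1 TPM in every library but the second treated one, at 9.13 TPM. Its relative *KCNK12* fell in both lines, from 10.8, 11.8 and 11.4 TPM to 3.93, 3.88 and 4.62 TPM in H82 (-1.27 ± 0.17, limma adjusted p = 0.000876). In H146 *KCNK12* fell from 7.97, 9.26 and 8.27 TPM to 4.60, 5.35, 3.67 and 3.38 TPM (-0.87 ± 0.18, limma adjusted p = 0.00488).

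The acid-sensitive leak channels *KCNK3* and *KCNK9* were lower in H146. *KCNK3* was at 29.6, 34.5 and 29.5 TPM untreated and at 15.0, 10.1, 11.5 and 11.0 TPM treated (-1.33 ± 0.16, limma adjusted p = 0.000379), and *KCNK9* at 6.75 to 8.52 TPM untreated and 1.64 to 3.42 TPM treated (-1.32 ± 0.22, limma adjusted p = 0.00168). In H82 the result for *KCNK3* rested on treated replicate 2. It was at 4.16, 4.13 and 4.14 TPM untreated and at 0.288, 5.49 and 0.389 TPM treated. The log2 fold change was -1.18 ± 0.60 (limma adjusted p = 0.131) with all libraries and -1.94 (limma adjusted p = 0.00143) without the second treated library.

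*KCNK2* (chromosome 1, 215005775 to 215237090), a stretch- and lipid-sensitive leak channel, was the only member called higher in both lines. It was at 0.638, 0.929 and 0.419 TPM in untreated H82 and at 2.78, 1.95 and 3.0 TPM in treated H82 (1.11 ± 0.22, limma adjusted p = 0.00469), where it passed the filter only through the treated libraries and dropped below it when any of them was left out. In H146 it rose from 13.6, 17.0 and 10.2 TPM to 30.2, 22.8, 38.8 and 38.8 TPM (1.20 ± 0.23, limma adjusted p = 0.00362). The groups did not overlap in either line. The related *KCNK10* fell in H146 from 4.07 to 6.77 TPM to 0.327 to 0.984 TPM (-1.89 ± 0.22, limma adjusted p = 0.000325), and it passed the filter there only through the untreated libraries. *KCNK15* rose in H146 from 0.260, 0.0369 and 0.134 TPM to 1.73, 1.80, 3.05 and 3.74 TPM (1.61 ± 0.24, limma adjusted p = 0.00112), having passed the filter only through the treated libraries.

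Of the 85 members, 28 were tested in both lines. In both lines 5 were lower (*KCNAB1*, *KCNH6*, *KCNK12*, *KCNS3* and *KCNT2*), a pattern held by 4.43% of the 15677 genes tested in both. *KCNK2* alone was higher in both, beside 4.82% of all genes. The members lower in H82 and higher in H146 were 4, *KCNC1*, *KCNH4* and *KCNV2* among them, beside 13.2% of all genes, which is near the background. No member was higher in H82 and lower in H146, beside 2.3% of all genes.

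**Figure D5:**
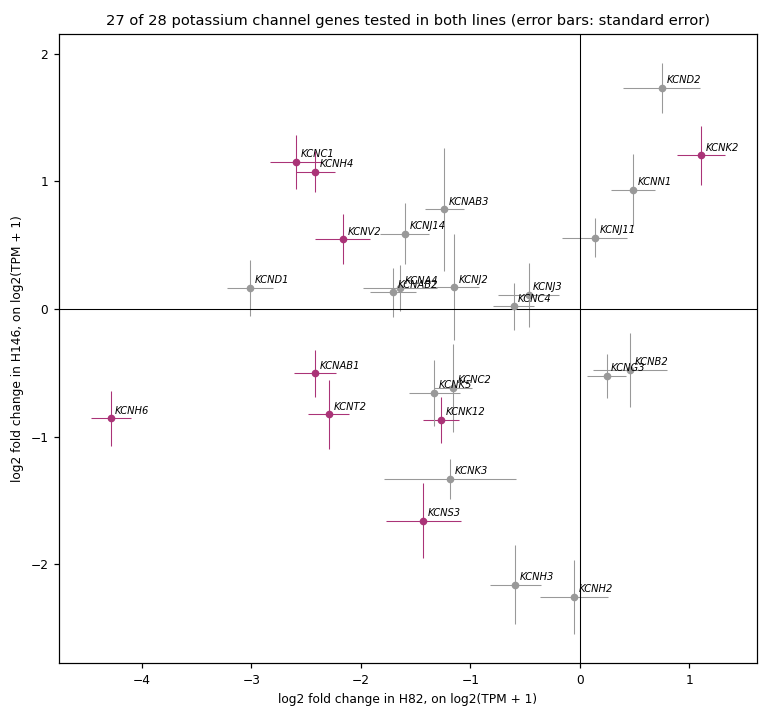
Each point is a member tested in both lines, 27 of the 28 being shown, with the log2 fold change on log2(TPM + 1) in H82 on the horizontal and in H146 on the vertical axis, and bars for the standard error. Purple marks members called in both lines; *KCNC1*, *KCNH4* and *KCNV2* lie at the upper left, *KCNK2* at the upper right, and *KCNH6*, *KCNAB1*, *KCNT2*, *KCNK12* and *KCNS3* at the lower left.

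Whether the lines responded differently was tested by the line-by-treatment interaction, fitted over all 13 libraries, which compares the change within each line's own table. Of 63 members in that fit, 23 had a lower and 17 a higher response in H82 than in H146, beside 46% and 13.3% of all 24374 genes, 59.3% together. For members barely expressed in a line, the difference mostly restates the response of the other line. Among members expressed in both lines the differences were, for example, -3.75 ± 0.31 for *KCNC1* (limma adjusted p = 2.4e-06) and -3.49 ± 0.22 for *KCNH4* (limma adjusted p = 3.3e-07). The hERG gene *KCNH2* had a difference of 2.21 ± 0.45 (limma adjusted p = 0.0013), its response being lower in H146. The responses of *KCNK2*, *KCNS3* and *KCNK12* differed between lines by -0.10 ± 0.33, 0.23 ± 0.48 and -0.40 ± 0.23, none past the threshold (limma adjusted p = 0.81, 0.70 and 0.15).

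Members below the filter were mostly silent. In H82, 41 members, and in H146, 23, stayed under 1 TPM in every library, and 6 and 2 respectively were listed at 0 throughout. Counting all 85 members, the treated and untreated libraries did not overlap for 33 lower and 14 higher members in H82, beside 23.5% and 7.67% of all rows of the table. In H146 this held for 25 lower and 23 higher members, beside 7.28% and 16.4% of all rows. Most of the 56831 rows were below the filter, with 19770 passing it in H82 and 19585 in H146. Of the 85 members, 35 and 56 passed, so these shares do not compare genes of like expression, above all in H146. The exact permutation test on a single gene could not go below 0.1 in H82 or 0.0571 in H146 (two-sided), so no such difference could pass 0.05. Among the below-filter genes of H82, *KCNG1* was listed at 0 in every untreated library and at 1.54, 0.204 and 0.446 TPM after treatment, and *KCNT1* was at 0.404 to 0.881 TPM untreated and 0.0228 to 0.118 TPM treated.

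Genes that assemble with or resemble these channels were examined from a list of 25 names, of which 24 were found. In H82, 9 were tested, and 6 were lower and none higher, beside 45.5% and 13.1% of all genes. They included *LRRC55*, an auxiliary subunit of the large-conductance channel, at 8.14 to 9.36 TPM untreated and 0.0236 to 0.0513 TPM treated (-3.22 ± 0.18, limma adjusted p = 9.73e-05) and past the filter only through the untreated libraries, and the pacemaker channel *HCN3*, at 30.5 to 35.0 TPM untreated and 6.30 to 12.2 TPM treated (-1.87 ± 0.25, limma adjusted p = 0.000869). In H146, 12 were tested, and 2 were lower and 4 higher, beside 15.5% and 32.5% of all genes, so the rises were near the background. The pacemaker gene *HCN4* fell from 11.0 to 16.6 TPM to 1.59 to 5.12 TPM (-1.87 ± 0.31, limma adjusted p = 0.00169). *DPP6*, an auxiliary subunit of the *KCND* channels, rose from 38.5, 41.2 and 29.7 TPM to 91.6, 147, 61.8 and 59.6 TPM (1.20 ± 0.30, limma adjusted p = 0.012). *ABCC8* was lower in H82, at 2.16 to 2.86 TPM untreated and 0.527 to 1.27 TPM treated (-0.997 ± 0.23, limma adjusted p = 0.00824). In H146 it was higher, at 3.42 to 4.68 TPM untreated and 6.58 to 8.70 TPM treated (0.68 ± 0.17, limma adjusted p = 0.0108).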

How the data were processed

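RNA-seq libraries of H82 and H146 cells, 3 untreated per line with 3 treated in H82 and 4 in H146, were analysed line by line. Per the study's methods and the submitters' processing notes, reads were trimmed (Trim Galore 0.4.4), mapped to hg38 and counted per gene with STAR and GENCODE 28, and DESeq2 was used for the study's comparisons. The deposited values are TPM computed by the authors, with 1 table per line. The gene length used and the strand setting are not given in the sources used here, and read depth is unknown since TPM keeps none. Members and lists were chosen with earlier results of these data known. Values were analysed as log2(TPM + 1) with limma 3.58.1 (lmFit, eBayes with trend) in R 4.3.3, on genes that reached 1 TPM in 3 or more of a line's libraries, and p-values were adjusted by Benjamini-Hochberg across every gene of the fit. The interaction fit used all 13 libraries. Single-gene exact permutation tests used scipy 1.17.1. Scripts were tested on simulated data. Full statistics went to the up to 8 largest non-overlapping falls and rises per line, members called in both lines or with opposite signs and a called interaction, and the most abundant member of each subfamily, and any member could be named. All 85 members matched a GENCODE release 44 gene (GRCh38), from which coordinates come. Alternatives were another pseudocount (0.1), other filters, median-of-ratios and quantile scaling, removal of mitochondrial genes, library weights, no variance trend, a replicate block and leaving out each library. Some genes are not reported here.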

Additional observations from a re-analysis of the deposited data

Results flagged for a closer look

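Among 37 members given full statistics, 1 treated library stood far from the other 3 of its group. *KCNF1* was at 0.831 TPM in the fourth treated H146 library and at 0.384 to 0.422 TPM in the others. Chance alone flags about 1 group in 20, and this value is still far below the untreated libraries.

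The response to FHD-286 differed between the lines for 27 of the 37 members in the limma interaction test. Over all genes in that fit it differed for 59.3%, with 46% lower and 13.3% higher in H82. Some of the 37 were chosen through this same test and others for a large change in a line. The count is therefore partly fixed by that choice. The differences below are H82 minus H146 log2 fold changes, and no explanation was tested. The response was lower in H82 for 14 members, namely *KCNC1* by -3.75, *KCNH4* by -3.49, *KCNH6* by -3.43, *KCND1* by -3.18, *KCNV2* by -2.71, *KCNJ14* by -2.19, *KCNAB3* by -2.02, *KCNAB1* by -1.91, *KCNAB2* by -1.84, *KCNA4* by -1.81, *KCNK15* by -1.72, *KCNT2* by -1.47, *KCNJ2* by -1.32 and *KCNC4* by -0.63. The response was higher in H82 for 13 members, namely *KCNG3* by 0.77, *KCNMA1* by 1.37, *KCNMB2* by 1.47, *KCNJ8* by 1.56, *KCNH3* by 1.57, *KCNK13* by 1.90, *KCNK17* by 2.17, *KCNH2* by 2.21, *KCNA2* by 2.25, *KCNQ1* by 3.23, *KCNK16* by 3.40, *KCNF1* by 3.96 and *KCNA1* by 7.13. The *KCNA1* value rests in part on the second treated H82 library, at 10.0 TPM. Leaving that library out gave *KCNA1* a difference of 6.18, still called (limma adjusted p = 4.9e-06). Without the same library *KCNK13* differed by 1.05, *KCNJ2* by -1.20 and *KCNC4* by -0.59. These last genes then lost their call (limma adjusted p = 0.051, 0.093 and 0.074), whereas the other listed members kept theirs. *KCNK16* and *KCNK17* were listed at 0 in every untreated H82 library. With median-of-ratios scaling *KCNT2*, *KCNJ2* and *KCNC4* differed by -0.73, -0.78 and -0.15, none called (limma adjusted p = 0.12, 0.23 and 0.59). Quantile normalization gave *KCNT2* -0.66, *KCNJ2* -0.079, *KCNAB3* -1.07 and *KCNA4* -0.86, again none called (limma adjusted p = 0.13, 0.91, 0.13 and 0.057).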

How the results depend on the processing

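In H82 the 23 falls and 2 rises became 21 and 6 with median-of-ratios scaling, 15 and 8 with quantile normalization, 24 and 4 with library weights (beside 53% and 20.1% of all genes), and 14 and 1 among genes with 1 TPM in a library of each group. In H146 the 14 rises became 9 with either scaling. Differences between lines became 13 lower and 26 higher in H82 with quantile normalization. The shares of all genes moved as well, from 46% and 13.3% to 25% and 25.4%. Leaving out 1 library gave 14 to 23 falls and 1 to 3 rises in H82, beside 26.2 to 52.2% and 9.03 to 18.4% of all genes. In H146 it gave 12 to 25 falls and 7 to 15 rises, beside 9.58 to 19.6% and 22.6 to 39.3%. Between lines it gave 18 to 26 lower and 9 to 18 higher differences, beside 38.6 to 48% and 10.8 to 14.4%. Fewer members passed the filter without an untreated library. Without some library, 10 of the 25 members called in H82 and 7 of the 37 in H146 dropped below the filter. Where the gene was still tested, the adjusted p rose past the threshold without some library for 2 in H82 (*KCNC4* and *KCNK7*, both also among those 10) and for 12 in H146, of which 1 was among those 7 (the 12 include *KCNAB1*, *KCNG3*, *KCNH8*, *KCNJ11*, *KCNK13*, *KCNN1*, *KCNN2*, *KCNS2*, *KCNT1*, *KCNT2* and *KCNV2*).

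Some signs turned, and the cause was not tested. The H82 falls of *KCNC2* (-1.16) and *KCNC4* (-0.60) and the line difference of *KCNC4* (-0.63) were called on the TPM as deposited, and *KCNH3* in H82 (-0.59) was not. In H82 *KCNH2* was 0.37 with median-of-ratios scaling, 0.80 with quantile normalization and -0.35 to 0.21 without 1 library. *KCNC2*, *KCNC4* and *KCNH3* were 0.054, 0.54 and 0.096 with quantile normalization, and *KCNJ11* was -0.065 with library weights and -0.021 to 0.40 without 1 library. In H146, under median-of-ratios scaling, quantile normalization and library weights respectively, *KCNA4* was -0.14, -0.032 and -0.036, *KCNC4* -0.21, -0.24 and -0.034, *KCND1* -0.070, -0.093 and -0.075, and *KCNJ2* -0.036, -0.061 and -0.47. *KCNAB2* was -0.16 and -0.13 under the first and second of these. Without 1 library *KCNC4* was -0.15 to 0.14 and *KCNJ2* -0.19 to 0.42. The line difference of *KCNC4* was 0.58 with quantile normalization.

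Same-numbered replicates did not deviate together from their group means (correlations -0.038 to 0.027 in H82 and -0.111 to 0.011 in H146), so the numbers were not taken to pair the samples. A fit with the replicate number as a block gave 22 falls and 2 rises in H82, beside 43.6% and 11.8% of all genes. In H146 it gave 20 and 11, beside 12.1% and 24.2%. Between lines it gave 21 lower and 15 higher differences, beside 42.2% and 11.7%.

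The depth of the libraries is unknown, which limits what can be said of members under 1 TPM. TPM are shares, and they cannot tell a fall of 1 gene from a rise of the rest.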
